A study of Drosophila melanogaster with 10 samples.

Results

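The translation initiation and elongation factors are the 49 genes of the count table, of 17676 in all, whose current FlyBase symbol begins with eIF or eEF. Of the 52 symbols of that form, the 3 genes eEF1alpha1, eEF1alpha2 and eIF4EHP were left out by the rule. The rule uses the symbol alone. They are described here in RNA-seq libraries of type II neuroblasts and their descendants, the stem cell lineages of the Drosophila larval brain that form tumors when Brat is depleted. GFP-positive cells were sorted from dissociated brains through a gate on light scatter, forward and sideways, and on the strength of the GFP signal, and polyadenylated RNA was sequenced.

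Animals of all 3 genotypes carried wor-GAL4 ase-GAL80 UAS-mCD8::GFP. The worniu promoter drives GAL4 in neuroblasts, and GAL80 under the asense promoter blocks it in cells that express asense. There were 3 brat-KD Spt5-KD-labelled libraries, with UAS-brat-IR and UAS-Spt5-IR added to this background, 4 libraries labelled brat-KD, with UAS-brat-IR added, and 3 control libraries with neither hairpin. The larvae were raised at 25 °C and were 96 h old by the labels, but 5 d old by the methods. The transgenes act in a lineage and not in 1 cell type, and the share of neuroblasts and of descendants among the sorted cells of each library was not measured. In these bulk libraries fewer cells of a type and less RNA per cell cannot be told apart.

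Translation starts when eIF2 brings the initiator tRNA to the small ribosomal subunit, eIF1, eIF1A and eIF3 hold this subunit ready for scanning, and eIF4E, eIF4G and eIF4A attach it to the capped end of an mRNA. After the start codon is found, eIF5 triggers GTP hydrolysis by eIF2, eIF5B joins the large subunit, and the elongation factors eEF1 and eEF2 deliver aminoacyl-tRNAs and move the ribosome. Neuroblasts grow back to their size between divisions, Myc is known to drive ribosome production and growth in them, and Brat to repress Myc in their progeny.

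The counts of a library summed to 2158058 to 4780947 in brat-KD Spt5-KD, to 5432145 to 7409954 in brat-KD and to 4968226 to 9753111 in control. brat-KD Spt5-KD replicate 1 had counts on 7544 genes, the fewest of all libraries, and control replicate 1 on 8558, the fewest of the control libraries. Both stood apart from the rest of their genotype, with rank correlations across genes to the other libraries of it of 0.838 to 0.846 and 0.909 to 0.911. brat, the targeted gene, had 290, 107 and 236 CPM (counts scaled to the depth of each library by TMM) in brat-KD Spt5-KD and 156, 130, 214 and 186 CPM in brat-KD, against 880, 967 and 1002 CPM in control. Spt5 had 205, 116 and 584 CPM in the brat-KD Spt5-KD-labelled libraries, against 139, 165, 135 and 128 CPM in brat-KD and 227, 198 and 182 CPM in control. Replicate 2 of them was below every brat-KD and control library, replicate 1 lay within the control range and above every brat-KD library, and replicate 3 was above all other libraries. The Spt5 transcript thus does not follow the label in all 3 libraries, and every direction given below for these libraries is a direction of the brat-KD Spt5-KD-labelled libraries. The summed level of 8 neuroblast markers (dpn, wor, mira, insc, klu, pnt, btd and grh) ranged from 1893 to 2485 CPM in brat-KD Spt5-KD, from 4029 to 4429 CPM in brat-KD and from 1807 to 1943 CPM in control, and all 8 were called higher in brat-KD than in control. The summed level of 6 neuron markers (elav, nSyb, Syt1, brp, onecut and para) ranged from 223 to 320 CPM, from 159 to 227 CPM and from 664 to 746 CPM in the same order. Of these 6, 5 were called lower in brat-KD than in control. In the brat-KD Spt5-KD-labelled libraries 1 was called higher than in brat-KD, and against control 1 was called higher and 2 lower. For type I neuroblasts and intermediate progenitors, 5 markers were listed (ase, erm, ey, opa and hbn). Their summed level ranged from 65.0 to 137 CPM, from 56.2 to 120 CPM and from 295 to 455 CPM in the same order. All 5 were called lower in brat-KD than in control, and 1 was called lower in the brat-KD Spt5-KD-labelled libraries than in control. These levels move with the genotypes, and their part in the results below was not tested. Glial markers summed to 391 to 454, 268 to 368 and 367 to 487 CPM. The 6 hemocyte markers summed to 15.6 to 16.6 CPM, 0.847 to 2.09 CPM and 32.7 to 89.8 CPM, with NimC1, He and eater at 0 in every library, and the 4 fat body markers to at most 26.4, 1.98 and 37.8 CPM.

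The 49 genes took 2.21% to 2.40% of a library's counts in brat-KD Spt5-KD, 2.53% to 2.96% in brat-KD and 2.10% to 2.19% in control. No brat-KD library overlapped a control library or a brat-KD Spt5-KD-labelled library in this share. It averaged 2.33% ± 0.106 (SD, n = 3) in brat-KD Spt5-KD, 2.80% ± 0.187 (SD, n = 4) in brat-KD and 2.13% ± 0.0476 (SD, n = 3) in control. eEF2, the GTPase that moves the ribosome by a codon, was the member with the most counts in every library. Of the counts on the 49 genes it held 15.4% to 18.5% in brat-KD Spt5-KD, 21.5% to 22.7% in brat-KD and 16.8% to 19.5% in control. Its part in the family's share thus also differed between genotypes.

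**Figure D1:**
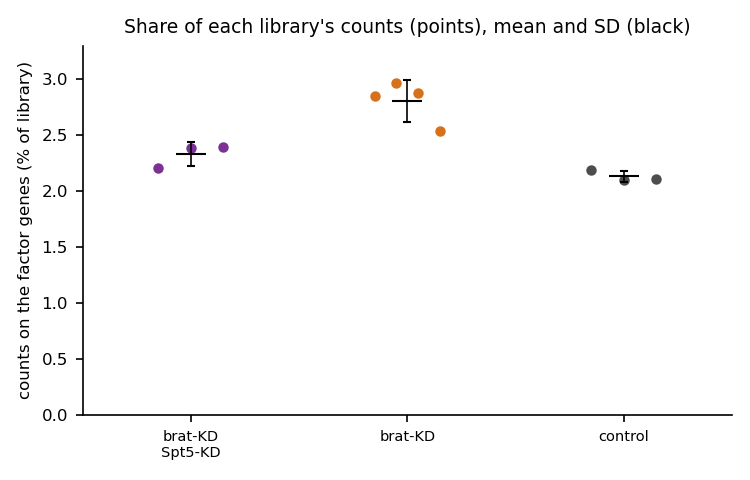
Share of each library's counts that fell on the 49 translation factor genes, in percent, with 1 point for each library and the mean and SD of the genotype in black. The 4 brat-KD libraries lie between 2.53% and 2.96%, above the 3 brat-KD Spt5-KD-labelled libraries (2.21% to 2.40%) and the 3 control libraries (2.10% to 2.19%).

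Of the 49 genes, 42 had more than 3 counts in at least 1 library. The 7 others were eIF3d2, eIF3g2, eIF4E4 and eIF4H2, with no count in any library, and eIF4E5, eIF4E6 and eIF4E7, with 3, 3 and 5 counts over all 10 libraries. Over the summed depth, 3 counts correspond to 0.0537 CPM, the mean level that the absence of any count allows for the first 4. The other 3 had at most 2 counts in any library. eIF3f2 had 12 counts, all of them in brat-KD Spt5-KD replicate 2. Each of the 8 is a second or later copy of a factor, and the copy that carried the counts was eIF3d1, eIF3f1, eIF3g1, eIF4H1 or eIF4E1. Intervals and detection limits of this kind cover counting error only.

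Per kb of annotated exon, the highest mean levels in control were those of eEF5 (2378 CPM per kb), eEF2 (1263), eEF1beta (977), eEF1gamma (953) and eIF4A (923). eEF5 is the fly eIF5A, which helps the ribosome to form peptide bonds at prolines and carries the amino acid hypusine. In brat-KD the order of the first 2 was turned, with eEF2 at 2016 ± 293 and eEF5 at 1912 ± 327 CPM per kb (SD, n = 4), a difference smaller than the spread between libraries. The 13 detected eIF3 subunits lay between 80.9 and 486 CPM per kb in control, eIF3j lowest and the other 12 between 209 and 486. The 5 subunits of eIF2B, the exchange factor that reloads eIF2 with GTP, lay between 28.4 and 57.1 CPM per kb, below the 3 subunits of eIF2 itself, which had 151 (eIF2gamma), 228 (eIF2alpha) and 402 (eIF2beta). Among the factors of the cap complex in control, eIF4A had 923 ± 60.3 CPM per kb, eIF4E1 162 ± 9.42, eIF4G1 33.3 ± 11.0 and eIF4G2 23.4 ± 1.62 (SD, n = 3), so the levels of the last pair differed by less than the spread of eIF4G1.

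The first comparison was brat-KD with control, that is tumor lineages with normal ones. eIF6, eIF3j and eIF4G1 rose most, by 2.56, 2.10 and 1.95 times. Alongside them rose eEF1gamma, eEF2, eIF2Bepsilon, eIF2D, eIF2gamma, eIF5B and eIF3b by 1.45 to 1.65 times, while eIF1 and eIF5, which act in the choice of the start codon, fell. Some of these genes overlap others, among them eIF6 with ytr and eIF5 with CG46312, and such reads were not separated. In all, 40 of the 49 genes had enough counts to be tested. Of these 10 (25.0%) were called higher, where 13.8% of all 8785 genes tested were, and 2 (5.0%) were called lower, where 14.3% of all genes were. The threshold was a Benjamini-Hochberg adjusted p of 0.05 over all genes in edgeR's quasi-likelihood test. The log2 fold change was above 0 for 28 of the 40 (70.0%, against 49.0% of all genes). Its median was 0.23, against -0.02 over all genes. Libraries of the 2 genotypes did not overlap for 13 members that were higher (32.5%, against 20.3% of all genes) and 2 that were lower (5.0%, against 18.4%).

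**Figure D2:**
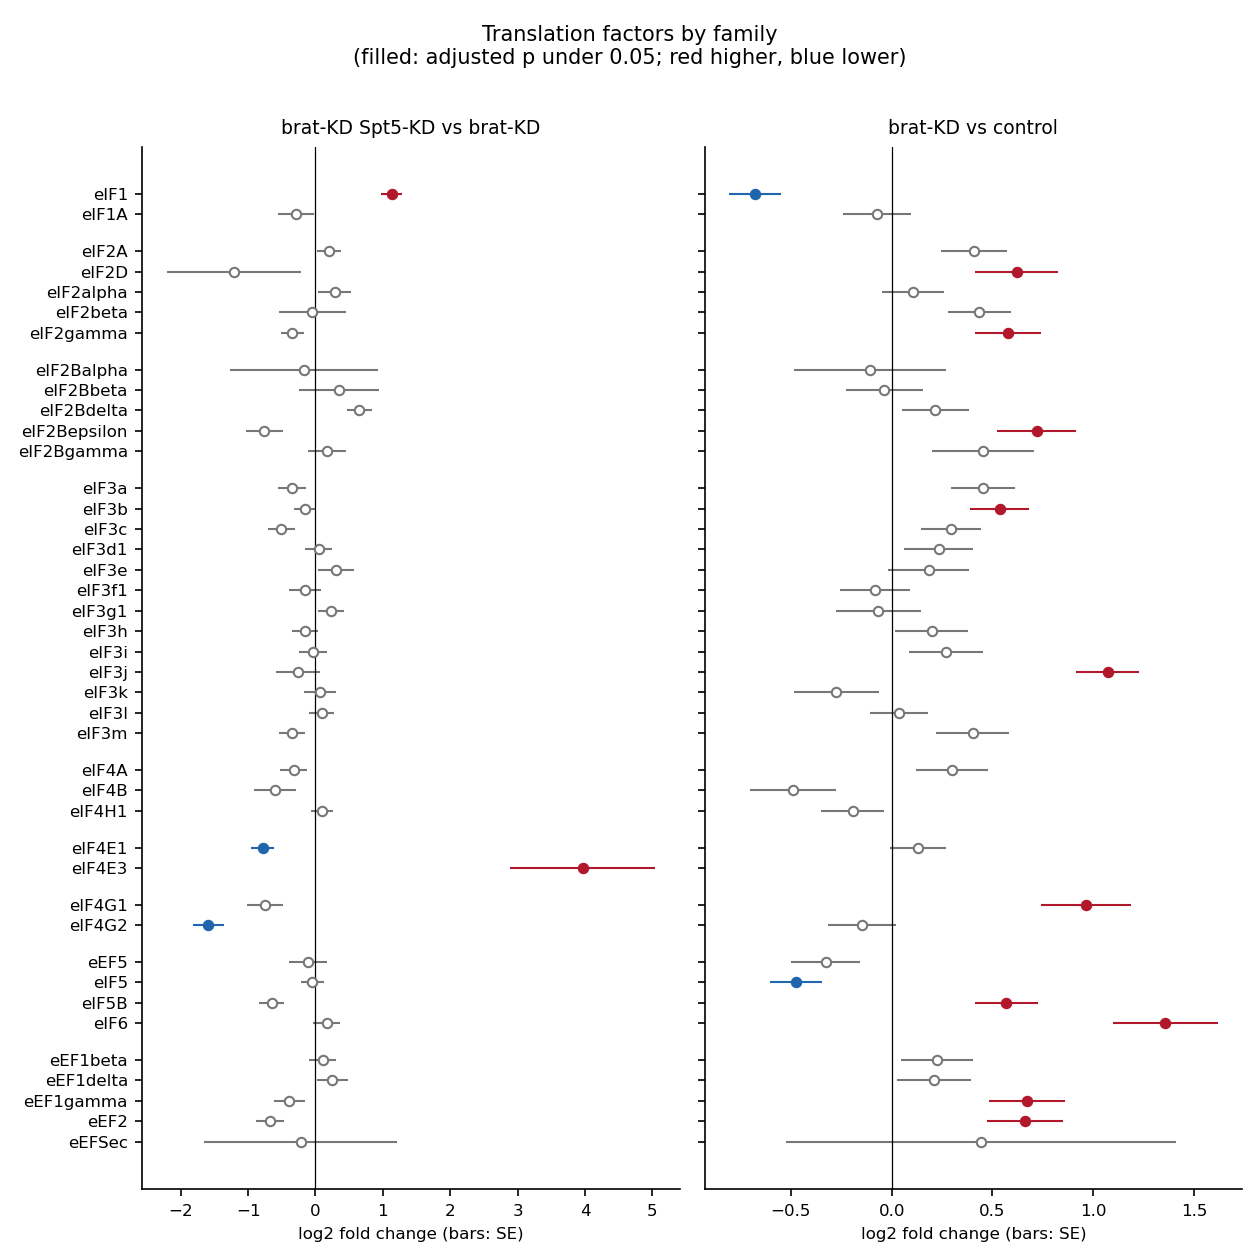
log2 fold changes with their standard errors for every tested translation factor, grouped by family, in the brat-KD Spt5-KD-labelled libraries against brat-KD (left, 41 genes) and in brat-KD against control (right, 40 genes). The axes have different scales, both comparisons use the same brat-KD libraries, and filled points passed the threshold (2 higher and 2 lower on the left, 10 higher and 2 lower on the right).

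eIF1 (FBgn0035423; 3L, 3223341 to 3224650), which keeps the scanning ribosome open until a start codon is matched, was lower in brat-KD. It had 173, 184, 162 and 162 CPM in brat-KD, against 272, 258 and 281 CPM in control, so that every brat-KD library was below every control library. The log2 fold change was -0.68 ± 0.13 (SE, edgeR adjusted p = 0.00275). eIF1A, its neighbour on the small subunit, averaged 322 ± 57.5 CPM in brat-KD (SD, n = 4) and 337 ± 49.7 CPM in control (SD, n = 3), and its log2 fold change was -0.07 ± 0.17 (SE).

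Among the factors that carry tRNA, eIF2gamma (FBgn0263740; 3R, 15257844 to 15263458), the GTP-binding subunit of eIF2, had 463, 527, 546 and 461 CPM in brat-KD, against 251, 367 and 382 CPM in control. It was higher in every brat-KD library, by 0.58 ± 0.16 on the log2 scale (SE, edgeR adjusted p = 0.0215), and the adjusted p was 0.0587 without brat-KD replicate 3. It shares 352 nt (16.0%) of its exon sequence with Su(var)3-9, and the reads of that stretch were not separated. The log2 fold change of Su(var)3-9 was 0.90 (edgeR adjusted p = 0.0821). The other 2 subunits did not pass the test: eIF2beta had a log2 fold change of 0.43 ± 0.16 (adjusted p = 0.0589) and eIF2alpha of 0.11 ± 0.16. eIF2D (FBgn0041588; 3R, 29149896 to 29151794), known in mammals to deliver tRNA without eIF2, had 78.9, 75.4, 53.3 and 65.7 CPM in brat-KD, against 50.1, 44.3 and 37.6 CPM in control. Its log2 fold change of 0.62 ± 0.21 passed narrowly (edgeR adjusted p = 0.0451). Leaving out 1 library ended this call for 5 of the 7 libraries, with adjusted p of 0.131, 0.102 and 0.0697 without brat-KD replicates 1, 2 and 4, and of 0.103 and 0.148 without control replicates 2 and 3. eIF2D shares 6 nt of exon sequence with Pglym78, which had 11531 counts over all libraries, against 2895 on eIF2D. The log2 fold change of Pglym78 was 1.43 (edgeR adjusted p = 0.000778).

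Of the 5 eIF2B subunits only eIF2Bepsilon (FBgn0023512; X, 1920166 to 1922874), the catalytic one, was called. It had 167, 164, 157 and 132 CPM in brat-KD, against 121, 77.2 and 81.6 CPM in control, with a log2 fold change of 0.72 ± 0.20 (SE, edgeR adjusted p = 0.019). The lowest brat-KD library was thus above the highest control library. The adjusted p was 0.0571 without brat-KD replicate 1, and 0.0676 and 0.0659 without control replicates 2 and 3. The remaining 4 subunits had log2 fold changes between -0.11 (eIF2Balpha) and 0.45 (eIF2Bgamma). Whether eIF2Bepsilon differs from them was not tested. It shares 153 nt of exon sequence with mip130, whose log2 fold change was 0.26 (adjusted p = 0.350).

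Within eIF3, the multi-subunit scaffold that binds the small ribosomal subunit, 2 of 13 tested subunits rose (15.4%, against 13.8% of all genes) and 0 were called lower by edgeR (0 also at an unadjusted p under 0.05 and by DESeq2). The log2 fold changes of the 13 ran from -0.27 (eIF3k) to 1.07 (eIF3j), with a median of 0.23, and 10 were above 0. eIF3j (FBgn0027619; 2R, 9968929 to 9970897), a loosely bound subunit, had 280, 210, 234 and 208 CPM in brat-KD, against 106, 105 and 120 CPM in control. No library came near the other genotype, and the log2 fold change was 1.07 ± 0.16 (SE, edgeR adjusted p = 0.000635). eIF3b (FBgn0034237; 2R, 17536213 to 17539142), a core subunit, had 876, 901, 780 and 715 CPM in brat-KD, against 585, 561 and 534 CPM in control. The groups did not overlap, and the log2 fold change was 0.53 ± 0.14 (SE, edgeR adjusted p = 0.0181). Without control replicate 2 or 3 the adjusted p for eIF3b was 0.0585 or 0.0668. eIF3a, the largest subunit, had a log2 fold change of 0.45 ± 0.16 and missed the threshold (adjusted p = 0.0553).

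**Figure D3:**
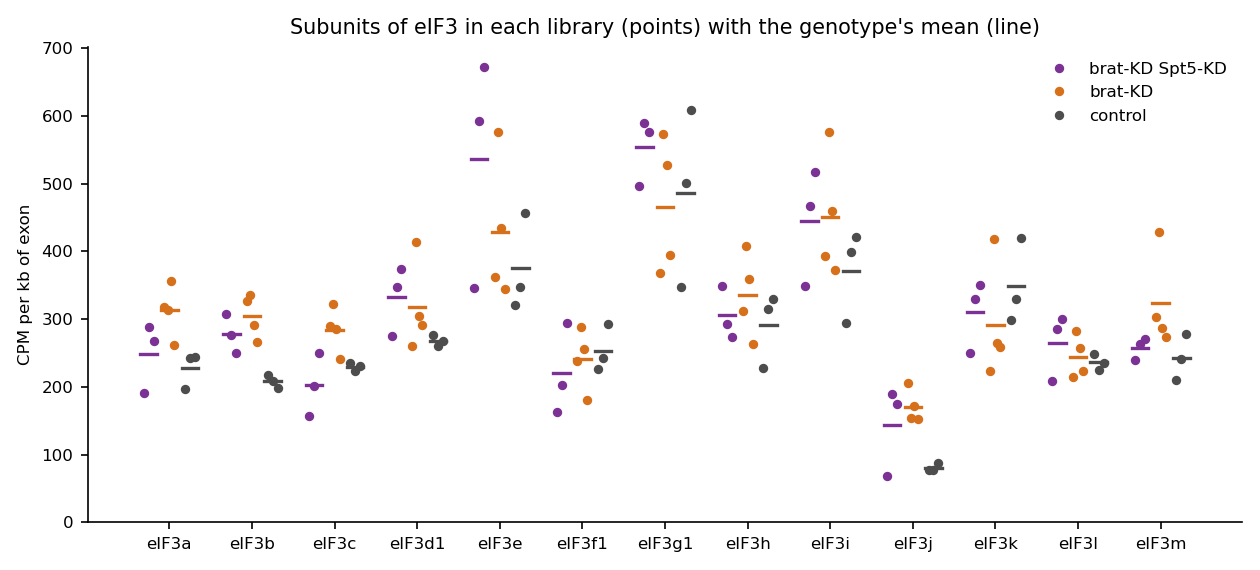
Level of each detected eIF3 subunit in CPM per kb of exon, with 1 point for each library and a line for the mean of the genotype. eIF3j is the lowest subunit in control (80.9 CPM per kb) and averages 171 CPM per kb in brat-KD, where every library lies above every control library; in the brat-KD Spt5-KD-labelled libraries, replicate 1 lies with the control libraries and the other 2 with brat-KD.

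At the capped end of the mRNA, eIF4G1 (FBgn0023213; chromosome 4, 915297 to 930715), the scaffold that joins eIF4E to eIF4A, had 490, 363, 391 and 484 CPM in brat-KD, against 301, 186 and 168 CPM in control. Every brat-KD library was higher, by 0.96 ± 0.22 on the log2 scale (SE, edgeR adjusted p = 0.00851). The cap-binding protein eIF4E1 (FBgn0015218; 3L, 9399618 to 9402460) had 386, 468, 383 and 360 CPM in brat-KD, against 348, 351 and 386 CPM in control. These groups overlapped, and the log2 fold change was 0.13 ± 0.14 (SE, adjusted p = 0.526). The helicase eIF4A had 2919, 3418, 2745 and 2257 CPM in brat-KD, against 2127, 2313 and 2424 CPM in control, with a log2 fold change of 0.30 ± 0.18 (adjusted p = 0.251). eIF4B, which stimulates the helicase, and eIF4H1 had log2 fold changes of -0.49 ± 0.21 and -0.19 ± 0.16, and neither was called.

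eIF6 (FBgn0034915; 2R, 23849246 to 23850301), which binds the large ribosomal subunit and keeps it from joining too early, had the largest log2 fold change of the 40 tested members, 1.36 ± 0.26 (SE, edgeR adjusted p = 0.00306). It had 261, 408, 305 and 231 CPM in brat-KD, against 70.6, 144 and 138 CPM in control. All brat-KD libraries were higher than all control libraries. The gene lies within an intron of ytr, whose own counts were 50304 over all libraries against 13718 on eIF6, and whose log2 fold change was 2.06 (adjusted p = 1.53e-05); the reads of the 2 genes were not separated. eIF5B (FBgn0026259; 3L, 3428658 to 3460977) had 333, 232, 268 and 253 CPM in brat-KD, against 181, 177 and 187 CPM in control. It was higher in each brat-KD library, by 0.57 ± 0.16 on the log2 scale (SE, edgeR adjusted p = 0.0193), with adjusted p of 0.0511 without brat-KD replicate 1, and of 0.0631 and 0.0511 without control replicates 2 and 3. eIF5 (FBgn0030719; X, 15987008 to 15991974), the GTPase-activating protein of eIF2, had 272, 237, 229 and 271 CPM in brat-KD, against 346, 368 and 328 CPM in control. It was lower in each, by -0.47 ± 0.13 on the log2 scale (SE, edgeR adjusted p = 0.0195), with adjusted p of 0.0533 without brat-KD replicate 3, and of 0.119 and 0.0523 without control replicates 2 and 3. It shares 80.8% of its exon sequence with CG46312, and 15715 counts on that gene stand beside 15880 on eIF5, so the value belongs to both.

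The elongation factors rose in part. eEF2 (FBgn0000559; 2L, 21677913 to 21682164) had 6123, 7197, 6305 and 5016 CPM in brat-KD, against 4083, 3587 and 3905 CPM in control. This was 0.66 ± 0.19 on the log2 scale (SE, edgeR adjusted p = 0.0238), with every brat-KD library above every control library. The adjusted p was 0.0622 without brat-KD replicate 3, and 0.0837 and 0.0618 without control replicates 2 and 3. eEF1gamma (FBgn0029176; 3R, 29220172 to 29222109), a structural subunit of the exchange complex for eEF1A, had 2341, 3075, 2903 and 2064 CPM in brat-KD, against 1769, 1507 and 1568 CPM in control. The libraries again did not overlap, and the log2 fold change was 0.67 ± 0.19 (SE, edgeR adjusted p = 0.022), with adjusted p of 0.0654 without brat-KD replicate 3, and of 0.074 and 0.0652 without control replicates 2 and 3. The catalytic subunits eEF1beta and eEF1delta had log2 fold changes of 0.22 ± 0.18 and 0.21 ± 0.18, and eEF5 of -0.33 ± 0.17. eEFSec, the elongation factor for selenocysteine, was low, at 5.83 ± 6.41 CPM in brat-KD (SD, n = 4) and 4.26 ± 1.41 CPM in control (SD, n = 3).

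Without control replicate 2, and likewise without control replicate 3, 4 of 40 members were called higher (10%) and 1 lower (2.5%). In the same fits 10.6% and 9.62% of all genes were called higher and 9.03% and 8.97% lower, so that the share of members called higher was close to that of all genes. eIF1, eIF3j, eIF4G1 and eIF6 were called under each of the 14 alternatives tried, and the other 8 calls were lost under at least 1 of them. Among the 17 tested members that overlap no other annotated gene, 4 were called higher (eEF1gamma, eIF3b, eIF3j and eIF5B; 23.5%) and 1 lower (eIF1; 5.88%), where 14.9% and 14.7% of all genes that overlap no other were called higher and lower.

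**Figure D4:**
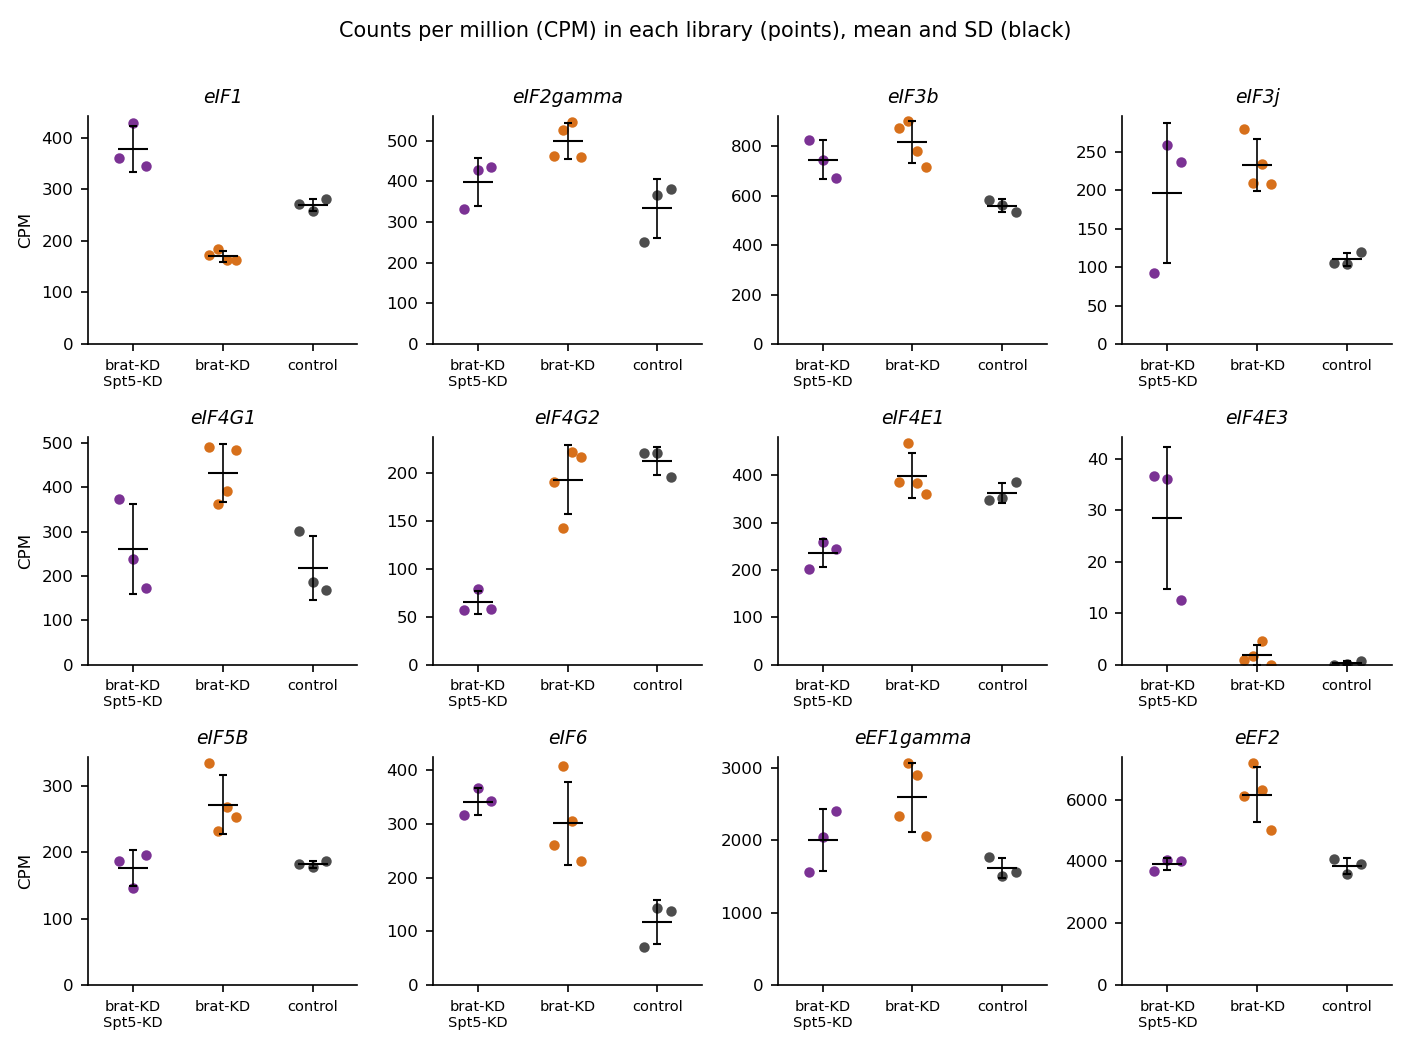
Normalised level (CPM) of 12 translation factors in each library, with 1 point for each library and the mean and SD of the genotype in black (the bars of eIF4E3 are cut at 0). eIF1 is lowest in brat-KD (162 to 184 CPM), eEF2 is highest there (5016 to 7197 CPM), eIF4G2 lies between 57.2 and 79.3 CPM in the brat-KD Spt5-KD-labelled libraries, against 143 CPM or more in every other library, and eIF4E3 is at 12.6 to 36.7 CPM in them, against 4.49 CPM or less elsewhere.

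The second comparison set the brat-KD Spt5-KD-labelled libraries against brat-KD. Few members were called: eIF4E3 and eIF1 were higher, and eIF4G2 and eIF4E1 were lower. In simulated data, with changed genes drawn at random from all genes tested, the fit recovered 48% of 4-fold changes, against 71% in the first comparison. Recovery was not measured for the members alone, and an uncalled member may still differ. Of 41 members tested, 2 were called higher (4.88%, where 5.91% of all 8750 genes were) and 2 lower (4.88%, where 5.71% of all genes were), shares close to those of all genes. The log2 fold change was above 0 for 16 of the 41 (39.0%, against 47.6% of all genes), and its median was -0.15, against -0.05 over all genes. Libraries did not overlap for 3 higher members (7.32%, against 12.9% of all genes) and 7 lower ones (17.1%, against 16.6%). This comparison shares its brat-KD libraries with the first one, so opposite directions in the 2 comparisons are not independent of each other.

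eIF1 had 361, 429 and 344 CPM in the brat-KD Spt5-KD-labelled libraries, against 173, 184, 162 and 162 CPM in brat-KD. The groups lay far apart, and the log2 fold change was 1.13 ± 0.15 (SE, edgeR adjusted p = 0.00428). Against control (272, 258 and 281 CPM) the same 3 libraries were also all higher, with a log2 fold change of 0.48 ± 0.19 that was not called (adjusted p = 0.175).

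eIF4E1 had 201, 258 and 245 CPM in the brat-KD Spt5-KD-labelled libraries, against 386, 468, 383 and 360 CPM in brat-KD. All 3 were lower than all 4, by -0.79 ± 0.17 on the log2 scale (SE, edgeR adjusted p = 0.0205). The call depended on all 4 brat-KD libraries, with adjusted p of 0.0666, 0.0583, 0.0621 and 0.052 without replicates 1 to 4. eIF4E3 (FBgn0265089; 3L, 8229224 to 8230568), a family member known for its part in spermatogenesis, had 156, 167 and 25 counts (36.7, 36.2 and 12.6 CPM) in the brat-KD Spt5-KD-labelled libraries. In brat-KD it had 5, 10, 34 and 0 counts (0.873, 1.69, 4.49 and 0 CPM), and in control 0, 1 and 3 counts. Even the lowest of the 3 libraries was above all others. The log2 fold change against brat-KD was 3.97 ± 1.08 (SE, edgeR adjusted p = 0.0454), and its size rests on few counts in brat-KD. The adjusted p was 0.105 and 0.0631 without brat-KD Spt5-KD replicates 2 and 3, and 0.145, 0.124, 0.0552 and 0.0525 without brat-KD replicates 1 to 4, so that only leaving out brat-KD Spt5-KD replicate 1 kept the call. The gene overlaps no other annotated gene, and even with this gain it remained below eIF4E1 in every library, also per kb of exon.

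eIF4G2 (FBgn0260634; 3R, 23808285 to 23819237), known for its role in the meiotic divisions of spermatocytes, had 57.2, 79.3 and 58.5 CPM in the brat-KD Spt5-KD-labelled libraries, against 191, 143, 222 and 217 CPM in brat-KD and 221, 222 and 196 CPM in control. All 3 were lower than every other library. The log2 fold change was -1.59 ± 0.23 against brat-KD (SE, edgeR adjusted p = 0.00558) and -1.71 ± 0.23 against control (SE, edgeR adjusted p = 0.00862). Against control it was not called without control replicate 2 (adjusted p = 0.0695). The gene lies within CG33111 and CG34355, which had log2 fold changes of -1.21 (adjusted p = 0.0182) and -1.19 (adjusted p = 0.00836) against brat-KD. It shares 779 nt (8.56%) of its exon sequence with CG33111. Reads of the 3 genes were not separated, and their counts over all libraries were of like size (9918 on eIF4G2, 11447 on CG33111 and 12587 on CG34355). eIF4G1 had 372, 238 and 172 CPM in the brat-KD Spt5-KD-labelled libraries, against 490, 363, 391 and 484 CPM in brat-KD, with a log2 fold change of -0.75 ± 0.26 that was not called (adjusted p = 0.104).

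Several members came close to the threshold with libraries that did not overlap. eEF2 had 3688, 4030 and 4013 CPM in the brat-KD Spt5-KD-labelled libraries, against 6123, 7197, 6305 and 5016 CPM in brat-KD, a log2 fold change of -0.68 ± 0.21 (adjusted p = 0.074). eIF5B had 186, 146 and 196 CPM, against 333, 232, 268 and 253 CPM in brat-KD (-0.65 ± 0.19, adjusted p = 0.0581). eIF2Bdelta, a regulatory subunit of eIF2B, lay on the other side, with 151, 113 and 117 CPM in the brat-KD Spt5-KD-labelled libraries, against 79.4, 77.1, 87.5 and 75.5 CPM in brat-KD (0.65 ± 0.18, adjusted p = 0.0509). Of the 13 eIF3 subunits, 0 were called by edgeR or by DESeq2 and 1 had an unadjusted p under 0.05 (lower in edgeR). Their log2 fold changes ran from -0.51 (eIF3c) to 0.31 (eIF3e).

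brat-KD Spt5-KD replicate 1 set the spread of several members. eIF2Balpha, eIF2D and eEFSec had no count in it, eIF2Bbeta had 14.6 CPM there, against 151 and 128 CPM in the other 2 libraries, and eIF2beta 136 CPM against 886 and 787 CPM. Without this library 4 members were called higher and 4 lower than in brat-KD, together 19.5% of the 41, where 26.3% of all genes were called in the same fit. The 4 earlier calls remained, eIF2Bbeta and eIF2alpha joined the higher genes, and eIF4G1 and eIF5B the lower ones. Without each other library of the pair in turn, 1 was called higher and 1 or 2 lower, together 4.88% or 7.32%, where 3.94% to 8.23% of all genes were called.

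Set against control, the brat-KD Spt5-KD-labelled libraries had 2 higher members of 41 (4.88%, where 3.97% of all 8506 genes were called higher) and 1 lower member (2.44%, where 3.32% of all genes were called lower). eIF6 had 316, 367 and 342 CPM, against 70.6, 144 and 138 CPM in control. All 3 libraries were higher, by 1.55 ± 0.28 on the log2 scale (SE, edgeR adjusted p = 0.0218), and its overlap with ytr holds here too (ytr, log2 fold change 1.89, adjusted p = 0.00409). The adjusted p for eIF6 was 0.082 and 0.0724 without brat-KD Spt5-KD replicates 2 and 3, and 0.0862 and 0.0922 without control replicates 2 and 3. eIF4E3 was at 3 counts or fewer in every control library, and was called higher (edgeR adjusted p = 0.0247). Its mean of 28.5 CPM was 56.8 times the mean floor of 0.502 CPM that 3 counts give in a control library. The lowest of the 3 brat-KD Spt5-KD-labelled libraries was 19.0 times the highest such floor. The adjusted p was 0.0965 and 0.0587 without brat-KD Spt5-KD replicates 2 and 3, and 0.0638, 0.135 and 0.0573 without control replicates 1 to 3. The log2 fold change was above 0 for 27 of the 41 (65.9%, against 49.5% of all genes), and its median was 0.19, against -0.01 over all genes. Libraries did not overlap for 8 higher members (19.5%, against 15.8% of all genes) and 4 lower ones (9.76%, against 18.3%). Without brat-KD Spt5-KD replicate 1, 7 members were called higher (17.1%, against 8.54% of all genes in the same fit) and 1 lower (2.44%, against 8.14%), and without control replicate 2 edgeR called 0 higher and 0 lower (3 and 3 at an unadjusted p under 0.05).

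Pairs of like factors were then set against each other within each library, where no scaling between libraries is needed. There were 5 pairs in 3 comparisons, on log2 ratios of counts with 0.5 added. With 4 libraries against 3 an exact two-sided permutation test cannot go below p = 0.0571, and with 3 against 3 not below 0.1, so no difference of ratios could pass 0.05 before or after an adjustment. In the same order, brat-KD Spt5-KD, brat-KD and control, the ratio of eIF4E1 to eIF4E3 averaged 3.18 ± 0.95, 8.79 ± 2.39 and 10.68 ± 1.54 (SD, n = 3, 4 and 3). Its values did not overlap between the brat-KD Spt5-KD-labelled libraries (2.45 to 4.25) and brat-KD (6.39 to 12.08), with an exact permutation p of 0.0571, the smallest possible. The 2 libraries with no count of eIF4E3 owe their ratio to the added 0.5.

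eIF4G1 and eIF4G2 code for scaffolds of the same kind, and their ratio was ordered by genotype. It was 2.70, 1.58 and 1.56 in the brat-KD Spt5-KD-labelled libraries, 1.36, 1.34, 0.81 and 1.16 in brat-KD and 0.45, -0.25 and -0.22 in control. The 3 ranges did not overlap. The difference was 0.78 between the brat-KD Spt5-KD-labelled libraries and brat-KD and 1.17 between brat-KD and control (exact permutation p = 0.0571 for each, the smallest possible). In the edgeR fits above, eIF4G1 was called between brat-KD and control, and eIF4G2 between the brat-KD Spt5-KD-labelled libraries and brat-KD. Reads of eIF4G2 were not separated from those of CG33111 and CG34355, which were also lower in the latter comparison, so the ratio may not be that of the 2 paralogs alone.

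eEF1beta and eEF1delta, both exchange subunits for eEF1A, kept ratios of 1.10 ± 0.20 in the brat-KD Spt5-KD-labelled libraries, 1.25 ± 0.47 in brat-KD and 1.20 ± 0.25 in control (SD, n = 3, 4 and 3). Their ranges overlapped in all 3 comparisons. eEF1beta had 1001, 1168 and 1446 CPM in the brat-KD Spt5-KD-labelled libraries, 1012, 1252, 1252 and 896 CPM in brat-KD and 826, 868 and 1120 CPM in control. eEF1delta had 426, 638 and 635 CPM, 545, 555, 329 and 451 CPM, and 413, 397 and 400 CPM in the same genotypes.

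eIF4A was also set beside CG7483, which RefSeq lists as eIF4AIII, the helicase of the exon junction complex, and which the naming rule leaves out. The log2 ratio of eIF4A to it was 3.85 ± 0.19 in brat-KD, against 3.06 ± 0.41 in control (SD, n = 4 and 3), and 2.88 ± 0.45 in the brat-KD Spt5-KD-labelled libraries (SD, n = 3). The brat-KD libraries overlapped neither of the other genotypes (exact permutation p = 0.0571 for each, the smallest possible). eIF4A had 2399, 2086 and 2403 CPM in the brat-KD Spt5-KD-labelled libraries. CG7483 had 236, 382 and 336 CPM there, 180, 233, 181 and 189 CPM in brat-KD and 185, 349 and 319 CPM in control, and it was not called in any of the 3 comparisons.

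For the copies that were silent or nearly so, the expressed partner is given alone. eIF3d1 had 554, 700 and 753 CPM in the brat-KD Spt5-KD-labelled libraries, 525, 834, 612 and 586 CPM in brat-KD and 556, 523 and 539 CPM in control. eIF3g1 had 510, 606 and 591 CPM, 379, 589, 542 and 405 CPM, and 357, 514 and 625 CPM in the same genotypes. eIF3f1 had 212, 264 and 383 CPM, 310, 375, 334 and 235 CPM, and 294, 315 and 381 CPM, and eIF4H1 561, 500 and 472 CPM, 557, 464, 430 and 431 CPM, and 433, 592 and 581 CPM. None of these 4 genes was called in any comparison, and the genotypes overlapped for each of them. The log2 ratio of eIF3f1 to eIF3f2 was 6.61 in brat-KD Spt5-KD replicate 2 and is fixed by the added 0.5 in the other 9 libraries.

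**Figure D5:**
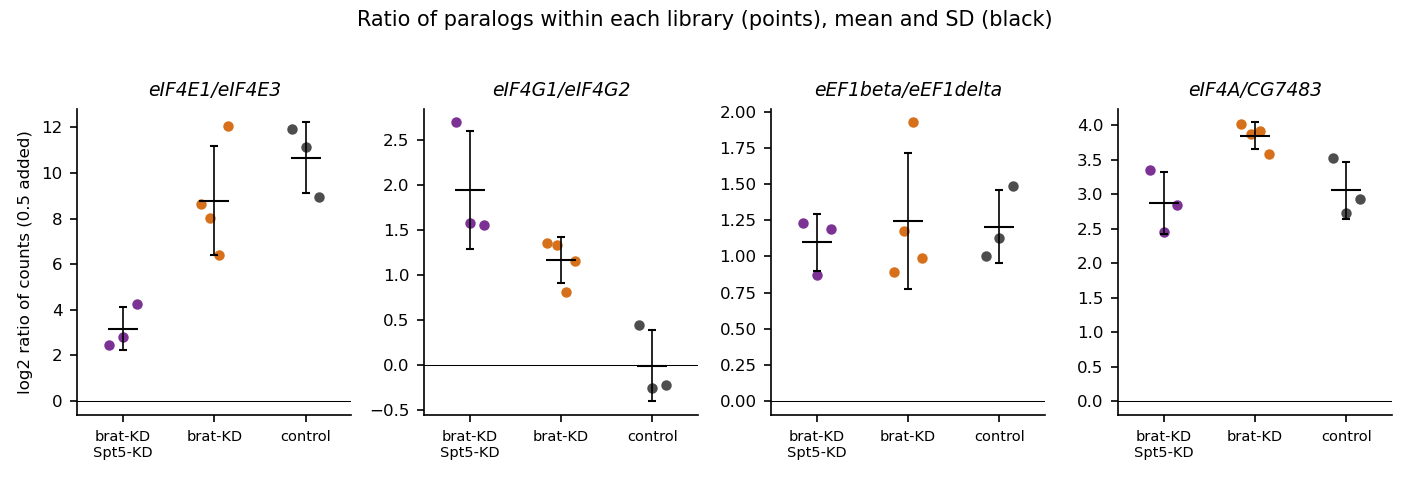
log2 ratio of the counts of 2 like genes within each library (0.5 added to each count), with 1 point for each library and the mean and SD of the genotype in black. The eIF4G1 to eIF4G2 ratio lies at 1.56 to 2.70 in the brat-KD Spt5-KD-labelled libraries, at 0.81 to 1.36 in brat-KD and at -0.25 to 0.45 in control, while the eEF1beta to eEF1delta ratio overlaps between all genotypes. Reads of eIF4G2 were not separated from those of CG33111 and CG34355.

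The rest of the pathway was taken from a list of 27 genes that act on these factors or in the later steps of translation. In brat-KD against control, 13 of the 27 were called higher (48.1%, against 13.8% of all genes) and 2 lower (7.41%, against 14.3%), with a median log2 fold change of 0.65, against -0.02 over all genes. In the brat-KD Spt5-KD-labelled libraries, 1 was called higher (3.70%, against 5.91% of all genes) and 2 lower (7.41%, against 5.71%) than in brat-KD, with a median of -0.31, against -0.05. Set against control, 1 was called higher (3.70%, against 3.97%) and 0 lower by edgeR (against 3.32%), with a median of 0.29, against -0.01. At an unadjusted p under 0.05 in edgeR, 1 was lower than in control, and DESeq2 called 0 lower. Among the 11 regulators of eIF4E and eIF4G, larp, the fly La-related protein, which in mammals binds mRNAs of ribosomal proteins and translation factors, had 153, 118 and 109 CPM in the brat-KD Spt5-KD-labelled libraries, 386, 349, 391 and 410 CPM in brat-KD and 142, 110 and 91.3 CPM in control. It was high in brat-KD alone, with log2 fold changes of -1.62 ± 0.18 for the brat-KD Spt5-KD-labelled libraries against brat-KD (SE, edgeR adjusted p = 0.0024) and of 1.73 ± 0.18 for brat-KD against control (SE, edgeR adjusted p = 6.5e-05).

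Thor, the fly 4E-BP, which binds eIF4E and keeps it from eIF4G, had 25.7, 38.3 and 42.9 CPM in the brat-KD Spt5-KD-labelled libraries, against 150, 383, 164 and 100 CPM in brat-KD, and was called lower (-2.51 ± 0.46 on the log2 scale, SE, edgeR adjusted p = 0.012). The kinase S6k was higher in brat-KD than in control by 1.15 ± 0.16 on the log2 scale (edgeR adjusted p = 0.000532). Of the 7 genes of release, recycling and rescue, the termination GTPase eRF3 was among 4 that were higher in brat-KD (1.07 ± 0.18, edgeR adjusted p = 0.00156), and HBS1, which frees stalled ribosomes, was the one called higher in both other comparisons. HBS1 had 262, 221 and 145 CPM in the brat-KD Spt5-KD-labelled libraries, 98.3, 124, 99.6 and 74.9 CPM in brat-KD and 59.3, 67.5 and 61.9 CPM in control. Of the 4 genes of eIF2 kinases and their response, PEK and crc, the fly ATF4, were higher in brat-KD than in control, by 0.86 and 0.87 on the log2 scale (edgeR adjusted p = 0.00617 and 0.0049). Of the 5 modifying enzymes of eIF5A and eEF2, 2 were called higher in brat-KD than in control.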

How the data were processed

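Type II neuroblast lineages of 3 genotypes were sequenced in 10 libraries, from poly(A) RNA in directional libraries amplified with 17 or 24 PCR cycles (the cycles of each library are not given in the sources used here). The authors mapped reads to BDGP6 (dm6) using bowtie2 (very-sensitive-local), which aligns no read across a splice junction, and deposited counts of reads per gene without normalization. The program that counted reads and its annotation are not given in the sources used here. The submitters' processing notes name FastQC and edgeR 3.26.8. Genotype and replicate number were taken from the labels. No label says that replicates were separate cultures or dissections, so p-values measure only the spread between these libraries, which may be technical.

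Members were found by symbol in the gene tables given for this work, all 49 in the count table. Coordinates, exon lengths and overlaps came from Ensembl release 115 of BDGP6. Counts on overlapping genes were not separated by strand or by intron. CPM were computed with TMM factors over the 10 libraries. Each comparison was fitted on its pair of genotypes with TMM, filterByExpr and edgeR's quasi-likelihood test (edgeR 4.0.16, R 4.3.3), on all genes of the table, with Benjamini-Hochberg adjustment over all genes tested and a threshold of 0.05. A count of 3 was taken as the detection limit, and fold changes against a genotype with 3 counts or fewer in every library are bounds. Paralog ratios were compared with exact permutation tests over libraries. Genes named with every library's value are those called in the first or second comparison and both members of each paralog pair, and other members are given by counts and ranges. Members and lists were chosen with earlier results of these data known. Members near the threshold and the genes named from the list of 27 were picked with their values in view. Each result was also computed with DESeq2 1.42.0, with DESeq2's size factors or plain library totals for scaling in edgeR, without the filter or with a minimum of 10 counts per library, with 1 fit over the 3 genotypes, with a block for replicate number, and without each library in turn. The procedure was tested on simulated data with 200 genes, drawn at random from all genes tested, changed 4-fold. It recovered 71% of them in brat-KD against control and 48% in brat-KD Spt5-KD against brat-KD. In brat-KD Spt5-KD against control it recovered 19%. The authors' own comparison tables were not used.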

Additional observations from a re-analysis of the deposited data

How the results depend on the processing

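No log2 fold change of a called member turned its direction under any alternative tried, and 207 of 264 values for these members kept their side of the threshold while 57 lost it. In brat-KD against control, 10 members were called higher and 2 lower. Leaving out 1 library gave 4 to 11 higher and 1 to 3 lower, and total counts gave 14 higher and 1 lower, all genotypes in 1 fit 7 and 1. In the brat-KD Spt5-KD-labelled libraries against brat-KD, 2 were higher and 2 lower. Leaving out 1 library gave 1 to 4 higher and 1 to 4 lower, and DESeq2, and also all genotypes in 1 fit, gave 4 lower. Against control, 2 were higher and 1 lower. Leaving out 1 library gave 0 to 7 higher and 0 to 1 lower. At least 10 counts in every library gave 1 higher and 3 lower, DESeq2 3 lower, and all genotypes in 1 fit 4 higher and 3 lower. Leaving out replicate 1 of both genotypes, chosen after seeing the data, gave 7 higher and 3 lower. The causes of these changes were not tested. The fit with at least 10 counts in every library gives no value for eIF4E3. With 5 counts added in place of 0.5, the eIF4E1 to eIF4E3 ratio of the brat-KD Spt5-KD-labelled libraries was lower than in control by a log2 difference of -5.43, against -7.50.

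Calls over all genes moved by more than 1.5 times in these settings. For brat-KD against control there were 2467, and 1250 with all genotypes in 1 fit. For the brat-KD Spt5-KD-labelled libraries against brat-KD there were 1017, and 1648 with DESeq2. Against control there were 620, with 1347 under DESeq2 and 1450 with all genotypes in 1 fit. Leaving out 1 library gave 1691 to 3228, 334 to 2408 and 64 to 1504.

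Replicate numbers are shared between genotypes, but no label says what they share. Deviations from the genotype mean in same-numbered libraries correlated at 0.0266, 0.115 and -0.0181 for brat-KD and control. They correlated at 0.0208, 0.132 and -0.00638 for brat-KD Spt5-KD and brat-KD, and at 0.127, 0.130 and 0.0765 for brat-KD Spt5-KD and control. Differently numbered libraries correlated at -0.132 to 0.120, -0.109 to 0.0462 and -0.137 to 0.115 in the same order. Against control, the same-numbered value was the highest for each brat-KD Spt5-KD replicate. For control replicate 3 it was not (0.0765, against 0.115 with brat-KD Spt5-KD replicate 2). These values do not settle whether the numbers pair the libraries, and the main fits do not use them. With the replicate number as a block, 8 members were called higher and 1 lower in brat-KD against control, 0 and 0 in brat-KD Spt5-KD against brat-KD (edgeR; 3 and 8 at an unadjusted p under 0.05, and 1 call over all genes), and 1 and 1 in brat-KD Spt5-KD against control. The block leaves fewer residual degrees of freedom, and why calls were lost under it was not tested.

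In brat-KD Spt5-KD replicate 3, the library of lowest depth, 3 counts stand for 1.51 CPM, so eIF3f2, eIF4E5, eIF4E6 and eIF4E7 cannot be ranked between genotypes at this depth.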
